A study of Homo sapiens with 35 samples.

Results

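Chromosome 10 was followed here through its contacts with the nuclear lamina in single cells of KBM7, a human leukaemia cell line, clone 5-5, which the labels give as diploid (2N). Its members are the 100-kb bins listed for this chromosome with a value in every cell, 1307 of the 26584 such bins in the table. By position alone they fall into 391 bins of the short arm (up to 39.2 Mb) and 916 of the long arm (from 40700001). All 32 cells analysed belong to 1 group, with no control cells and no second condition: each carries a fusion of the Dam adenine methylase with lamin B1, was given 0.5 nM Shield1 for 15 h and was sorted from the 2% smallest cells among those carrying both Fucci cell-cycle signals. Cells are named by the sample number in their title. The labels do not say that they came from separate cultures, so p-values measure the spread between these cells. The line is 1 clone, and a value sums over the 2 copies of the chromosome and over all of those 15 h.

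The nuclear lamina is a mesh of lamin filaments at the inner face of the nuclear envelope. Chromatin that touches it forms lamina-associated domains, which are as a rule poor in genes, little transcribed and late to replicate, whereas gene-rich chromatin tends to lie in the interior. DamID records such contacts because DNA that comes near the fusion protein is methylated on the adenine of GATC, a site that DpnI cuts only when it is methylated. A bin was called in contact in a cell where its ratio of observed to expected reads (OE) was 1 or more. For a cell, the contact share gives the percentage of its bins that reached this limit. For a bin, the contact frequency gives the percentage of cells that did so. All positions are on hg19, counted from 1, and no gene is named because the gene table used here is of another build.

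The cells held 985 to 258225 recovered reads (median 120164), of which 46 to 12502 lay on chromosome 10. Cells 13, 15 and 17 had at most 1755 reads, so that a single read on chromosome 10 had a median OE of 13.2 to 24.0, and their contact shares were the lowest of all cells on chromosomes 10, 11 and 12 and outside chromosome 10. The other 29 cells had at least 40279 reads, and values are given with and without the 3 shallow cells where they differ. No control for local accessibility or mappability was added here, and whether the expected reads allow for either is not given in the sources used. Of the 1356 bins listed for the chromosome, 49 had no value. These include 30 of the 31 bins from 39.2 Mb to position 42300000, beside and across the centromere, and 18 bins scattered between 46300001 and 51700000.

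Chromosome 10 was a mosaic of a few long stretches that touched the lamina in most cells and of longer parts that touched it in few or none. Contact frequencies of 0% were found for 563 of its 1307 bins (43.1%), against 42.0% of all bins in the table. Because 0 of 32 cells allows a share of up to 9.38% of cells, such bins are not shown to lack contact altogether. Frequencies of 80% or more belonged to 89 bins (6.81%), against 8.43% of all bins, and frequencies of 50% or more to 313 (23.9%), against 29.0%. Bins in contact in only 1 to 3 cells were 227 (17.4%), against 12.5% of all bins, and they made up 24.8% of the short arm and 14.2% of the long arm. The highest frequency was 93.8%, or 30 of 32 cells, at 62300001 to 62400000 and at 108100001 to 108200000. Without the 3 shallow cells, 156 bins reached 80%. Both extremes were rarer on the short arm, where 7 of 391 bins (1.79%) reached 80% and 135 (34.5%) were at 0%, beside 82 (8.95%) and 428 (46.7%) of the 916 long-arm bins; these differences between the arms were not tested.

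**Figure D1:**
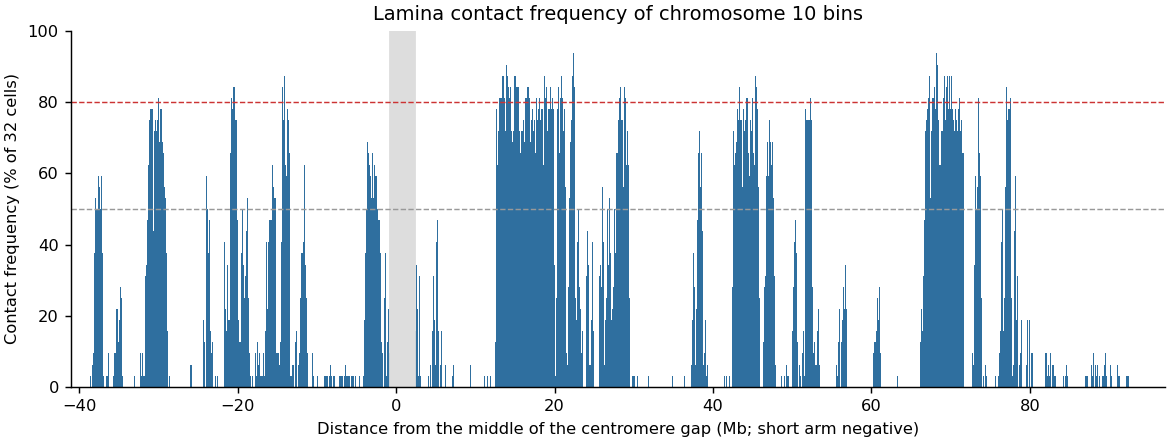
Contact frequency of each 100-kb bin of chromosome 10 (percent of 32 cells) against its distance in Mb from the middle of the centromere gap, short arm negative. Dashed lines mark 50% and 80%, and grey marks the bins beside the centromere, nearly all without values. The broadest block above 50%, on the long arm, is the 7.4-Mb stretch described in the text, and no bin from 120000001 on exceeds 12.5%.

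For every bin of the table, the count of cells in contact was set against what the cells' contact shares predict (exact two-sided Poisson-binomial test, Benjamini-Hochberg adjustment over 26584 bins). From those shares 8.42 cells were expected in contact, and calls required at least 15 cells or at most 3. On chromosome 10, the test called 330 bins (25.2%) for more cells than expected, against 30.3% of all bins. It called 790 bins for fewer cells (60.4%), against 54.5% of all bins. The short arm held 85 of the bins called more often (21.7% of its bins) and the long arm 245 (26.7%). Bins called less often made up 59.3% of the short arm and 60.9% of the long arm. The test takes each cell's contacts as spread evenly over the table, so neighbouring bins are not separate evidence.

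In comparison with the other bins of the table, chromosome 10 touched the lamina somewhat less. Its contact share ran from 15.2% to 36.6% over the 29 deeper cells and averaged 24.4% ± 5.79 (SD). Over all 32 cells it ran from 3.37% to 36.6%, with a median of 24.0%, and averaged 22.5% ± 8.09 (SD). All other bins averaged 26.5% ± 8.16 in the same cells. Cell by cell the mean difference was -3.98 percentage points (95% interval -5.89 to -2.07), with chromosome 10 lower in 24 of 32 cells (sign-flip permutation test over cells, adjusted p = 0.000183 over 22 chromosomes). By its mean it stood at rank 11 from the lowest of the 22 chromosomes tested. The mean OE, which uses no contact limit, was also lower on chromosome 10, at 0.811 ± 0.222 against 0.942 ± 0.0259 (sign-flip permutation test, p = 0.00332, lower in 23 of 32 cells). Between cells the mean OE of the chromosome varied from 0.456 to 1.26.

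Chromosomes 11 and 12 are nearest to chromosome 10 in length and were compared with it cell by cell. Chromosome 11 had 29.2% ± 10.8 of its bins in contact (SD, n = 32), and chromosome 10 was lower by 6.66 points (95% interval of the difference -9.41 to -3.91; lower in 27 of 32 cells; sign-flip permutation test, adjusted p = 8e-05 over 2 comparisons). Chromosome 12 had 22.6% ± 8.77, and chromosome 10 minus chromosome 12 was -0.08 points with a 95% interval of -2.50 to 2.34 (adjusted p = 0.949, chromosome 10 higher in 18 of 32 cells). With an OE limit of 0.5, with any read counted or with reads thinned, the difference had the opposite sign and did not pass either.

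**Figure D2:**
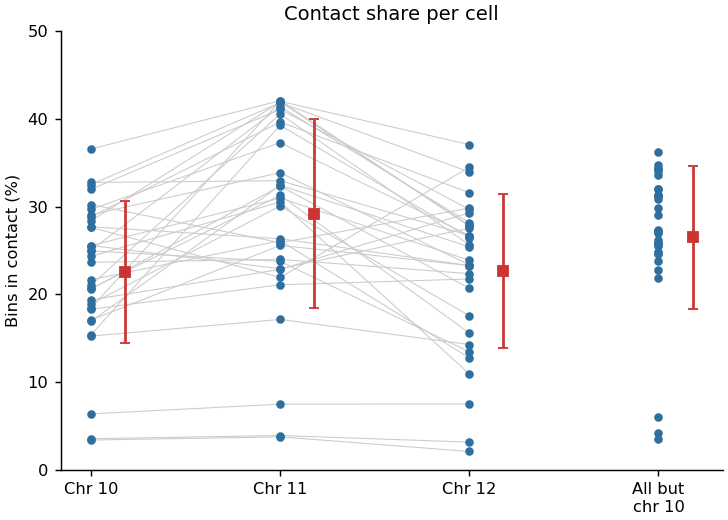
Contact share in percent of bins for chromosomes 10, 11 and 12 and for all bins outside chromosome 10. Points are the 32 cells, grey lines join the same cell across the 3 chromosomes, and red squares with bars are the mean ± SD. Chromosome 11 lies above chromosome 10 in 27 cells, and the 3 lowest points of each column are the shallow cells.

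Mostly contacted chromatin was concentrated in a small number of blocks. Adjacent bins at 50% or more made up 31 stretches, whose median length was 0.7 Mb. Of these, 13 lay on the short arm and 8 reached 1 Mb. The 5 longest held 187 bins, 14.3% of the chromosome, and 48.3% of all its contacts. In the 29 deeper cells they held from 36.2 to 61.8% of a cell's contacts on this chromosome. These stretches were chosen by their contact frequency, so their frequencies and OE are a description and were not tested.

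The longest stretch, 7.4 Mb at 52500001 to 59900000, was contacted at a frequency of 78.8%, and its OE averaged 2.94 ± 1.15 (SD, n = 32). In the 29 deeper cells, 50.0 to 100% of its bins were in contact, with a median of 91.9%. It was therefore contacted over at least 50% of its length in each of these cells, and in 7 of 32 cells every bin was in contact. No bin of the stretch fell below 62.5%. It alone held 5.66% of the bins and 19.8% of the contacts of the chromosome. Its centromere-side border was sharp, as the frequency went from 84.4% in its first bin to 12.5% in the bin before, and to 1.74% on average over the bins with values within 1 Mb. Past its other end, the frequency was 34.4% in the next bin and averaged 61.3% within 1 Mb.

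The second stretch, 4.9 Mb at 106700001 to 111600000, reached a frequency of 77.1%, with an OE of 2.92 ± 1.20 on average (SD, n = 32). Contact covered 24.5 to 100% of its bins in the 29 deeper cells (median 91.8%), and 27 of them reached 50%. At its distal border the last bin had 65.6%, the next bin 0%, and no bin within 1 Mb beyond it was in contact in any cell. On the proximal side the frequency fell from 71.9% to 46.9% across the border and averaged 17.8% within 1 Mb.

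The remaining 3 were less even from cell to cell. At 82500001 to 85700000 (3.2 Mb) the contact frequency was 73.0%, and the share per deeper cell ran from 3.13 to 100% with a median of 87.5%. At 67700001 to 69400000 (1.7 Mb) the frequency was 71.5%, with 11.8 to 100% and a median of 88.2%. On the short arm, the stretch at 9400001 to 10900000 (1.5 Mb) had a frequency of 70.6%, with 0 to 100% and a median of 93.3%. Of the 29 deeper cells, 26, 24 and 23 had at least 50% of the respective stretch in contact. The short-arm stretch thus had the highest median of the 5, but also the only deeper cell (cell 7) without any contact in its stretch.

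**Figure D3:**
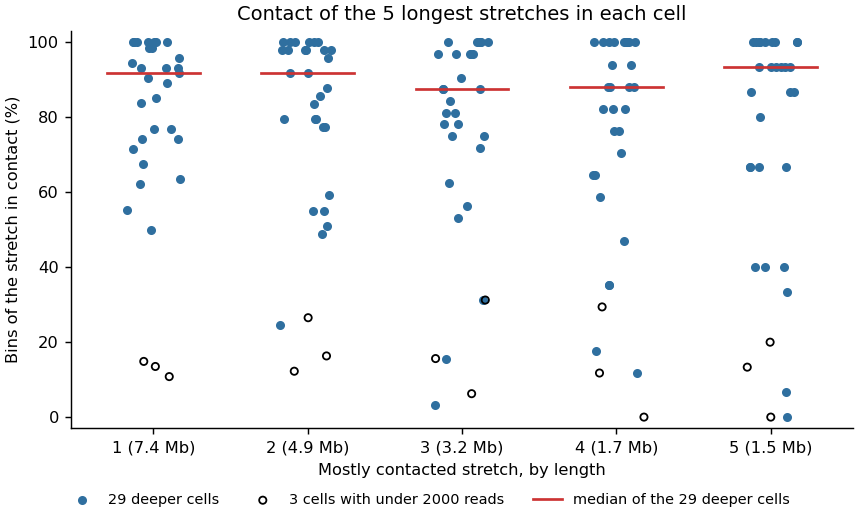
Percent of the bins in contact in each cell for the 5 longest stretches with a contact frequency of at least 50%, ordered by length. Blue points are the 29 deeper cells, open points the 3 shallow cells, and red lines the medians of the deeper cells (91.9, 91.8, 87.5, 88.2 and 93.3%). No deeper cell lies below 50% in the longest stretch, whereas the others have cells near 0 to 25%.

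Bins of very regular contact lay both around the longest stretch and in the second. Of the 5 bins in contact in 29 or 30 cells, 3 lay in the 4.9-Mb stretch, 1 in the 7.4-Mb stretch and 1 at 62300001 to 62400000. At a frequency of at least 80%, the chromosome had 47 stretches with a median of 0.1 Mb, 6 of them on the short arm, and none reached 1 Mb. The 3 longest were 53800001 to 54500000 (0.7 Mb, 85.3%), 53100001 to 53700000 (0.6 Mb, 84.4%) and 54800001 to 55400000 (0.6 Mb, 85.4%). The next 3, of 0.4 Mb each, were 56400001 to 56800000 (82.8%), 60600001 to 61000000 (82.8%) and 62100001 to 62500000 (88.3%). Their mean OE was 3.20 to 3.48, and 22 to 25 of the 32 cells had every bin of the stretch in contact. This ranking changed without the 3 shallow cells. Then 4 of the 6 longest shared bins with those given here, and the longest was 1.4 Mb at 109000001 to 110400000, inside the second of the mostly contacted stretches.

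Stretches without contact in any cell were more numerous and more widely spread. There were 109 of them, with a median of 0.2 Mb, 35 on the short arm, and 17 reached 1 Mb. The longest was 3.3 Mb at 96900001 to 100200000, where the 32 cells together gave 176 reads and OE averaged 0.0237 ± 0.0232 (SD). It was followed by 71900001 to 74800000 (2.9 Mb), 103300001 to 105900000 (2.6 Mb), 11400001 to 13900000 (2.5 Mb, on the short arm), 124700001 to 126900000 (2.2 Mb) and 133400001 to 135534747 (2.13 Mb, the end of the long arm). The mean OE of these 5 was 0.0112 to 0.0255. Some lay next to contacted chromatin. The bins within 1 Mb before the short-arm stretch had a contact frequency of 36.3%, and those within 1 Mb after the stretch at 103300001 to 105900000 had 32.5%, at the approach to the second mostly contacted stretch. Others lay deep in chromatin of rare contact, with 0.313% on either side of 71900001 to 74800000. The ranking of these stretches depended on the setting. The longest was 2.4 Mb at 11400001 to 13800000 with an OE limit of 0.5 and 7.1 Mb at 70100001 to 77200000 with a limit of 2. With reads thinned it was 2.6 Mb at 103300001 to 105900000, and with any read counted no stretch exceeded 0.3 Mb. Without the 3 or the 8 cells of fewest reads the longest was unchanged.

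In windows of 10 Mb, the profile rose and fell several times along the chromosome. The highest contact share was in the window at 50000001 to 60000000, at 60.7% ± 20.1 of its bins (SD, n = 32) with a mean OE of 2.27. Next came 60000001 to 70000000 with 40.3% ± 17.8 and 80000001 to 90000000 with 32.8% ± 14.7. Between the latter pair, the window at 70000001 to 80000000 had 6.28% ± 4.89. In it, 86 of 100 bins were called in contact less often than expected, against 54.5% of all bins in the table. These calls use the same contacts as the share of the window, so they are a description and no separate evidence. The 3 lowest were the end of the long arm from 130000001 (0.893% ± 2.18), 120000001 to 130000000 (2.16% ± 4.57) and 40000001 to 50000000, beside the centromere (6.20% ± 5.74 over 63 bins with values). On the short arm the 4 windows were more alike, with 15.6 to 25.1%.

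The ends of the chromosome and the flanks of the centromere were each compared with the other 1122 bins of chromosome 10 in the same cells, which had a contact share of 24.1% ± 8.43 (SD, n = 32). The last 5 Mb of the long arm had 0.625% ± 1.79, lower in 32 of 32 cells (sign-flip permutation test, difference -23.4 points, adjusted p = 2e-05 over 4 comparisons). Before adjustment this test gave p = 1e-05, the smallest the resamples can give. The first 5 Mb of the short arm had 14.5% ± 11.6, a difference of -9.56 points (adjusted p = 0.000133, lower in 26 of 32 cells). With any read counted as contact this difference was -4.49 points (adjusted p = 0.0869), and over 8 alternatives the adjusted p ran from 2e-05 to 0.0869. Within 2 Mb of the short-arm end the share was 5.63%, and within 2 Mb of the long-arm end it was 0%. A comparison chosen after these values were seen set both ends against each other. The short-arm end was higher by 13.9 points (95% interval 9.68 to 18.1), in 27 of 32 cells and in none lower (sign-flip permutation test, adjusted p = 1e-05 over 2 comparisons, the smallest the resamples can give).

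The flanks of the centromere also differed between the arms. On the short-arm side, the 5 Mb beside the gap had 26.8% ± 18.7 of 50 bins in contact, a difference of 2.69 points from the rest that did not pass (95% interval -2.57 to 7.96, adjusted p = 0.302). On the long-arm side, 10.5% ± 9.99 of 35 bins were in contact, a difference of -13.5 points (adjusted p = 2e-05, lower in 30 of 32 cells). Distances on this side were counted from 40700001, but up to position 42300000 only a single bin had a value. That bin, 40700001 to 40800000, held 0 reads and counted as not in contact. The bins measured on this side thus covered less than the stated distance. Set against each other after these values were seen, the short-arm side exceeded the long-arm side by 16.2 points (95% interval 11.2 to 21.2; 29 of 32 cells; sign-flip permutation test, adjusted p = 1e-05). These values depended on the distance taken. With 10 Mb in place of 5 Mb, the short-arm side was below the rest (difference -12.7 points, adjusted p = 1.33e-05). With 2 Mb it was above the rest by 7.90 points (adjusted p = 0.0462). The long-arm side did not pass at 2 Mb (-2.42 points, adjusted p = 0.562), where few bins had values and the bin of 0 reads was among them.

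Over whole arms the difference was small and not stable. The short arm had 2.81 to 53.5% of its bins in contact (median 21.5%), with a mean of 20.1% ± 11.0 (SD, n = 32). The long arm had 3.38 to 34.6% (median 24.2%), with a mean of 23.6% ± 8.27. In the 29 deeper cells the range was 3.32 to 53.5% for the short arm and 14.5 to 34.6% for the long arm. The ranges overlapped, and the mean difference of -3.44 points (95% interval -6.84 to -0.04; lower on the short arm in 21 of 32 cells) just passed the sign-flip permutation test (p = 0.0475). It no longer passed in 5 of 8 alternatives (p from 0.0026 to 0.863 over all 8) or on leaving out any of 19 single cells (1, 5, 6, 7, 8, 9, 10, 13, 18, 19, 20, 21, 22, 24, 25, 27, 29, 30 or 31). Leaving out cell 6 gave -2.90 points (p = 0.0854) and leaving out cell 7 gave -2.92 points (p = 0.0849). Without bins near the ends and the centromere the difference was -5.57 points (p = 0.0026), and without bins of low expected reads it was -5.50 points (p = 0.00419).

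The arms varied from cell to cell partly on their own. Their contact shares had a Pearson's r of 0.552 and a Spearman's rho of 0.538 over 32 cells, and of 0.329 and 0.387 over the 29 deeper cells. Both arms of a cell share its library and depth. After the share of the cell outside chromosome 10 was subtracted from both, r was 0.340 over 32 cells and 0.314 over 29, and 0.368 without cells 7 and 26, whose short arms lay farthest from the median. The short arm spread more widely than the long arm in the deeper cells, with an SD of 10.2 against 5.74 points. The short-arm share rests on fewer bins, 391 against 916, and its SD includes cells 7 (3.32%) and 26 (53.5%). The difference in spread was not tested.

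**Figure D4:**
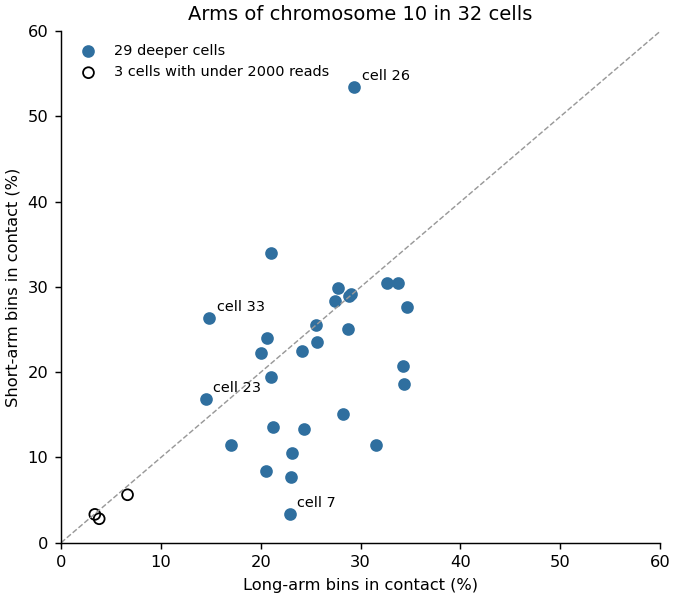
Percent of bins in contact on the short arm against the long arm of chromosome 10 in each of the 32 cells, with the dashed line at equality. Cell 26 lies far above the line (53.5% against 29.4%), cell 7 far below it (3.32% against 22.9%), and cells 23 and 33 have the lowest long-arm shares of the deeper cells.

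Single cells departed from the common profile over long regions, and the cells and regions in this paragraph were chosen after their values were seen. In cell 26, 53.5% of the short arm was in contact, and 134 of the 192 bins from 20000001 to 39.2 Mb (69.8%), where the next highest deeper cell had 36.5% and the median was 21.4%. The mean OE of the whole short arm in that cell was 1.85, against 0.849 on its long arm. Its short-arm bins that were never in contact in any cell also had a higher OE, 0.232 against 0.0686 on the long arm and 0.0671 on other chromosomes. Cell 7 was the opposite case, with contact over 3.32% of the short arm and 22.9% of the long arm at 122629 reads. Its never-contacted bins had an OE of 0.0457 on the short arm and 0.0268 on the long arm. Over the 29 deeper cells, the short-arm share minus the share outside chromosome 10 had a Pearson's r of 0.566 and a Spearman's rho of 0.344 with the OE of the never-contacted short-arm bins. The part of that OE in these cells' short-arm shares was not tested.

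Gaps of this kind were also seen on the long arm. In cell 23, 9 of the 300 bins from 60000001 to 90000000 (3.00%) were in contact, whereas the other deeper cells had 12.0 to 43.3%. The same cell had 62.2% of the neighbouring 7.4-Mb stretch in contact, where the deeper cells had 50.0 to 100% with a median of 91.9%. Its share of the whole chromosome, 15.2%, was the lowest of the deeper cells, beside 27.3% outside chromosome 10. In cell 33, contact was found in 23 of the 400 bins from 80000001 to 120000000 (5.75%), and the other deeper cells had 16.3 to 40.8%. Cell 33 had 91.9% of the 7.4-Mb stretch in contact, but 24.5% of the 4.9-Mb and 3.13% of the 3.2-Mb stretch, the lowest of the deeper cells in both. Neither cell was among the shallow ones, with 116045 and 105667 reads.

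**Figure D5:**
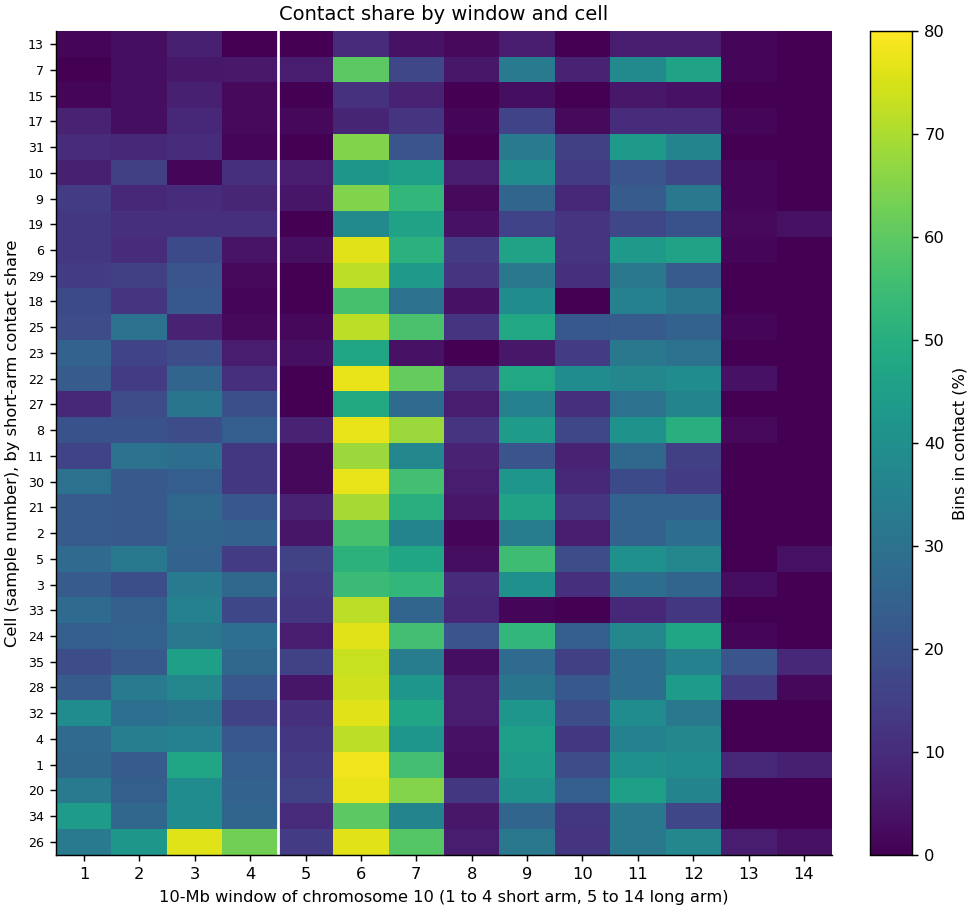
Contact share (percent of bins, colour) of each cell in the 14 windows of 10 Mb along chromosome 10, the last of which is shorter. Cells are ordered by short-arm share from top to bottom, and the white line separates the arms. Window 6 is at 38.1% or more in every deeper cell, windows 13 and 14 are near 0 in most, cell 26 is bright in windows 3 and 4, and cell 33 is dark in windows 9 and 10.

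Contacts at the far end of the long arm were rare and came mainly from a few cells. From 120000001 to the end, 52 of the 156 bins were in contact in any cell, 31 of them in a single cell, and no bin in more than 4 cells (12.5%). These contacts, 85 in all, were found in 17 of the 32 cells. Cells 35, 28 and 1 held 54 of them (63.5%), with 26, 15 and 13 bins, or 16.7, 9.62 and 8.33% of the region. The median deeper cell had 0.641% of the region in contact. Of the 156 bins, 154 were called in contact less often than expected, against 54.5% of all bins in the table. The region was made up of windows picked for their low contact share, so these calls are a description and no separate evidence.

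Between the 5 mostly contacted stretches, the shares of the 29 deeper cells went together to different degrees, which is given as a description because cells share libraries and depth. After the share outside chromosome 10 was subtracted, Pearson's r was highest for the stretches of 3.2 and 1.7 Mb (0.584) and next for those of 4.9 and 3.2 Mb (0.486). It was 0.171 for those of 7.4 and 4.9 Mb and 0.00784 for the longest and the short-arm stretch. The 1.7-Mb stretch had 0.434 with the short-arm stretch and 0.388 with the longest. By Spearman's rho these pairs had 0.176 and 0.537, so the order depended on the measure. The remaining pairs had a Pearson's r of 0.00602 to 0.318. Bins of 20 to 80% contact frequency had a mean correlation of contacts over the 29 deeper cells of 0.388 up to 1 Mb apart, 0.222 at 1 to 5 Mb, 0.176 at 5 to 20 Mb, 0.0936 at 20 to 50 Mb and 0.0407 beyond 50 Mb. Each step in distance had a lower mean than the one before. Beyond 50 Mb the mean was 0.136 on chromosome 11 and 0.118 on chromosome 12, and these differences were not tested.

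Uninterrupted contacts in single cells were measured as runs. The mean run of adjacent contacted bins was 458 kb ± 176 (SD, n = 32) on chromosome 10, 492 kb on chromosome 11 and 467 kb on chromosome 12, and neither difference passed (sign-flip permutation tests, adjusted p = 0.407 and 0.676, with 95% intervals of -87.8 to 19.6 and -52.5 to 34.5 kb). With an OE limit of 0.5 or with any read counted, runs were shorter than on chromosome 11 (-82.9 and -86.1 kb, adjusted p = 0.00776 and 0.0002). The longest run of a cell was 4.54 Mb ± 2.05 in the 29 deeper cells, ranging from 1 to 7.5 Mb. Over all 32 cells it was 4.14 Mb ± 2.33, ranging from 0.2 to 7.5 Mb, and 5 cells reached 7.5 Mb. It was 1.23 Mb longer than on chromosome 12 (95% interval 0.597 to 1.87; longer in 22 and shorter in 6 of 32 cells; adjusted p = 0.00152 over 4 comparisons). This did not pass with any read counted (0.703 Mb, adjusted p = 0.141) or with runs joined across 1 bin (0.831 Mb, adjusted p = 0.0674), and the adjusted p of 7 alternatives ran from 0.00156 to 0.141. In 15 of the 32 cells the longest run overlapped the 7.4-Mb stretch, and in 2 more (cells 15 and 26) 1 of several runs tied for the longest did. Outside that stretch, the longest run averaged 3.025 Mb ± 1.54 (SD, n = 32), beside 2.91 Mb on the whole of chromosome 12. That difference was not tested.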

How the data were processed

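The table holds, per 100-kb bin and cell, reads observed over reads expected, a ratio (OE) that was used as deposited by the authors. How the expectation was made is not given in the sources used here. Reads were trimmed with cutadapt and aligned with Bowtie2 2.1.0 to hg19, per the submitters' processing notes, and adapters were extended in 21 steps, per the labels' protocols. Of 35 labelled samples, 32 matched a column; samples 12, 14 and 16 are not analysed here. No columns were identical, and the labels name no batch. Read numbers per cell were recovered by taking each bin's values as whole multiples of 1 read. Reads were counted only in bins where this held within 0.01 reads, so the fit is no separate check of the read numbers. Reads carry no molecular identifiers, so limits from counts of 0 cover counting error only.

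Differences within cells were tested by two-sided sign-flip permutation over cells (100000 resamples, smallest p 1e-05) with Benjamini-Hochberg adjustment within each family and a threshold of 0.05. Intervals are 95% and use the t distribution. Calls per bin used an exact Poisson-binomial test over all 26584 bins. The regions named are the 6 longest stretches at 80% or more and at 0%, the 5 longest at 50% or more, and the 3 highest and 3 lowest windows; those named beyond this rule were chosen after their values were seen. Members and lists were chosen with earlier results of these data known. Alternatives were OE limits of 0.5, 2 and any read, fewer cells, reads thinned to 40279, other distances, fewer bins and joined runs. Scripts used Python 3.11.15, numpy 2.4.6, pandas 2.3.3 and scipy 1.17.1 and were tested on simulated data. A planned description of genes was not run, because the gene table is of another build.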

Additional observations from a re-analysis of the deposited data

How the results depend on the processing

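The lower contact share of chromosome 10 than of other bins and of chromosome 11, its lower mean OE, the lower long-arm end and both comparisons chosen after values were seen kept their direction and passed under every alternative run. Of 106 recomputed values with a test, 87 kept direction and side of the threshold. Of 42 counts and correlations without a test, 26 were not counted as moved. The limit for this was loose, and some of the 26 still changed clearly, such as the number of bins at 0%. The short arm minus the long arm was -2.23 points with an OE limit of 0.5, -0.279 with any read counted, -3.72 and -3.29 without the 3 or 8 cells of fewest reads and -3.47 with reads thinned, none of which passed. With any read counted, the short-arm end did not pass (-4.49 points) and the longest run against chromosome 12 did not (0.703 Mb, and 0.831 Mb with joined runs). At 2 Mb the short-arm side of the centromere passed (7.90 points) and the long-arm side did not (-2.42), and at 10 Mb the short-arm side was -12.7 points. Against chromosome 12 the share reversed at an OE limit of 0.5 (0.193 points), with any read (1.00) and thinned (0.213), without passing. Mean runs against chromosome 11 passed at 0.5 (-82.9 kb) and with any read (-86.1 kb). The longest run against chromosome 11 reversed at an OE limit of 2 (0.0781 Mb), as did mean runs against chromosome 12 at 2 (2.77 kb) and thinned (7.33 kb), without passing.

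Bins at 80% or more numbered 194 at an OE limit of 0.5, 4 at 2, 296 with any read, and 156 and 160 without the 3 or 8 cells of fewest reads. Bins at 50% or more numbered 395 at 0.5, 203 at 2 and 529 with any read. Bins at 0%, 563 in the main setting, numbered 395 at 0.5, 730 at 2 and 46 with any read. The correlation of the arms was 0.679 at 0.5, 0.312 at 2, 0.877 with any read, 0.329 and 0.440 without 3 or 8 cells, and 0.286 thinned. With the share elsewhere subtracted it was 0.241 at 2 and 0.451 without 8 cells. The cause of these changes was not tested.

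With each cell left out in turn, the short arm minus the long arm ran from -4.33 to -2.90 points (p from 0.00627 to 0.0854), and chromosome 10 minus chromosome 12 from -0.515 to 0.519 points, reversed in 10 of 32. Mean runs against chromosome 12 ran from -15.2 to 0.657 kb. No paired analysis was possible because all cells belong to 1 group, so that no replicate number is shared between groups. The tests themselves compare regions within each cell. In the 29 deeper cells a read was worth a median OE of 0.0908 to 0.585 on chromosome 10, so that in the sparsest of them a median bin needed 2 reads for a contact.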
